A study of Mus musculus with 17 samples.

Results

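The cadherins and protocadherins are adhesion receptors with calcium-binding repeats outside the cell. They were followed in cells that descend from the dorsal or the lateral wall of the subventricular zone (SVZ) after birth, where progenitors make neurons for the olfactory bulb. The genes were chosen by name: every probe whose gene name starts with Cdh and a digit, or with Pcdh, in the scanner files' annotation, without the endothelial cadherin Cdh5. Of 118 such probes for 68 genes, 109 probes for 67 genes passed the filter on low signal, out of 24339 genes measured in all. The filter asked that the scanner software call a probe well above background in the dorsal or the lateral channel of 2 or more arrays. Only Cdh19 did not pass. The files' Pcdh21 and Cdh29 are given by their present names, Cdhr1 and Cdhr4.

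Classical cadherins bind the same cadherin on a neighbouring cell and tie the contact to actin through the catenins that hold their cytoplasmic tail. Type I members such as Cdh2 (N-cadherin) build adherens junctions, including those that anchor radial glia at the ventricle, and type II members sort neurons and their synapses. Delta protocadherins are single genes that adhere weakly and signal to the cytoskeleton. The clustered alpha, beta and gamma protocadherins are arrays of variable exons on chromosome 18, from which each neuron uses only a few, and this choice gives neurons of the mouse an identity by which their branches avoid themselves.

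Cells of the dorsal wall (Cy3) and of the lateral wall (Cy5) came from CD1 mice electroporated in vivo on postnatal day 1, and GFP-positive cells were sorted 8 hours or 1, 2, 4, 7 or 14 days later. There were 2, 3, 2, 3, 3 and 4 arrays at those times, and each held 1 dorsal and 1 lateral sample. In the text, early means 8 hours to 2 days (7 arrays) and late means 4 to 14 days (10 arrays), with each time point given equal weight. The dyes were never swapped, so a dye effect of a probe adds to a dorsal minus lateral difference but cancels between times. The amplified RNA was labelled polyA RNA for the dorsal and total RNA for the lateral channel, and fewer expressing cells cannot be told apart from less RNA per cell. The labels call the arrays of a time biological replicates, and p-values measure the spread between them.

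The 6 probes below are examples of what the arrays read in these genes. They are printed because they fall in coding sequence that defines the family, whereas the probes that stand for most members carry no such signature. Of the 6, only the Cdh11 and Pcdh19 probes stood for their genes in the tests below. For Pcdh9, Cdh4, Cdh10 and Cdh20 a brighter probe did. Coordinates are of the mm9 build, as the scanner files give them. Capitals mark the motif. In the Pcdh9 probe (chr14:94286116-94286175, minus strand) it is GANNNNGANNNNGGNNNNAAN, the codons of a calcium-binding stretch inside a cadherin repeat, where N is any base. Capitals in the next group, from Cdh11 (chr8:105191906-105191965, minus strand), Cdh4 (chr2:179581965-179582024, plus strand) and Pcdh19 (chrX:130220413-130220472, minus strand), mark GANNNNAANGANAAN, the calcium-binding linker between repeats. The last group, Cdh10 (chr15:18943342-18943401, plus strand) and Cdh20 (chr1:106890864-106890923, plus strand), carries TGGGGNCCNNGNTTN, near the end of the tail that binds beta-catenin.
Pcdh9: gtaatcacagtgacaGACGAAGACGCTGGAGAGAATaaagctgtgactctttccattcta
Cdh11: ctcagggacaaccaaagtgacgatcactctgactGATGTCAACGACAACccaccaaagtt
Cdh4: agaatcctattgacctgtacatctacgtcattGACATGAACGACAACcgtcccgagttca
Pcdh19: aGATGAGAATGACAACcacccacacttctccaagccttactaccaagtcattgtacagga
Cdh10: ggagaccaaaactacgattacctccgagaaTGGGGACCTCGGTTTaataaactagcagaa
Cdh20: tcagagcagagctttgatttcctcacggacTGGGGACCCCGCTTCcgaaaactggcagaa

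Read on both strands, the linker motif was in 4 of the 109 probes of these genes (3.67%) and in 0.549% of all 41174 probes. The repeat motif was in 1 of them and in 0.187% of all probes. The tail motif was in 2 of them, the Cdh10 and Cdh20 probes above, of 4 probes on the whole array. None of the 6 probes printed held a second of the 3 motifs.

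Well above background in either channel on all 17 arrays were 39 of the 67 genes, and 9 were so on under 9 arrays. Among the 39, Cdhr4 was read from a brighter probe assigned to the same gene, which the name rule had not selected. Its selected probe had mean log2 levels of 6.54 to 6.62 by wall and phase. Over all probes, 41.0 to 76.7% were well above background in the dorsal channel and 56.4 to 79.4% in the lateral channel. The arrays that stood apart from the rest were 1 day replicate 1 and 14 days replicate 2, whose median correlations with the other arrays were 0.69 and 0.76 across genes, which are not independent replicates. Without both, the members called below numbered 10 in place of 8 for the early wall difference and 9 in place of 7 for the wall difference over all times. They numbered 3 in place of 5 for dorsal time and 12 in place of 6 for lateral time. The share of all genes called rose too, to 7.02, 5.5, 7.58 and 12.3% from 3.61, 2.47, 5.25 and 6.5%, in that order. All arrays of 1 day shared 1 slide and all of 14 days another, so those times cannot be told apart from their slides, while 4 and 7 days were spread over 3 slides and 2 days over 2 of these. Both arrays of 8 hours were on 1 of those 3 slides. In the sorted cells, 6 of 8 radial glia markers (Fabp7, Nes, Slc1a3, Sox2, Tnc and Vim) were well above background on every array in both channels, while Hopx was so in 1 of 10 late dorsal and 5 of 10 late lateral samples and Prom1 in 8 and 9 of 10. The same held on every array for all 6 neuroblast markers, but also for 5 of 7 microglial markers, among them Tyrobp and C1qa, and for the globin genes Hba-a1 and Hbb-bt of the 6 erythroid ones. It held too for 6 of 7 oligodendrocyte lineage, 4 of 6 astrocyte, and 4 of 7 mural and fibroblast markers. In the remaining lists it held for 1 marker each: Ccdc153 (ependymal), Cldn5 (endothelial), Folr1 (choroid plexus) and Birc5 (cycling).

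Soon after electroporation, most of the members that differed between the walls were higher in dorsal cells. At the early times 7 members were higher and 1 was lower in dorsal cells (limma, Benjamini-Hochberg adjusted p under 0.05 over all genes), which is 11.9% of the 67 against 3.61% of all genes (2.03% higher and 1.57% lower). Over all 6 times, 6 were higher and 1 was lower, against 2.47% of all genes (1.35% higher and 1.12% lower). With median centring of each array the split was 4 higher and 2 lower at the early times and 5 and 5 over all times. Of all genes, 6.64% were called there at the early times and 23.7% over all times. With quantile normalization the split was 4 and 0, and 5 and 0 (2.68 and 2.14% of all genes called). The scanner's processed signals gave 4 and 1, and 2 and 1 (1.71 and 0.98% of all genes called). With the labels' replicate number as a block (the replicate block), 1 member was called at the early times and 0 over all times. The shares of all genes were then 0.44 and 0.0247%. The median of the members' early differences was 0.32 on the log2 scale, dorsal minus lateral, and that of all genes was 0.03.

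Pcdh8 had the largest difference among the members. It is a delta protocadherin whose rat protein, arcadlin, takes N-cadherin off the cell surface at synapses. Its early log2 level ran from 13.34 to 14.84 in dorsal samples, with a median of 13.88, against 8.05 to 12.21 in lateral samples, with a median of 10.76. Every early dorsal sample lay above every early lateral one. Its dorsal minus lateral differences were 2.72 and 2.61 on the 8-hour arrays, 5.30, 2.63 and 2.69 after 1 day, and 5.29 and 3.70 after 2 days. The early difference was 3.57 ± 0.45 (SE, 7 arrays, 11.8-fold, adjusted p = 0.0021), and it passed without each array in turn and under all 12 other settings. Only 1 Pcdh8 probe passed the filter, so the mean over probes and every probe on its own could not change its values. By 4 days the differences were 0.98, 3.09 and 2.25, at 7 days they were -0.44, 0.21 and 0.74, and at 14 days 3.23, 0.13, -0.35 and 1.73.

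Cdh2, the N-cadherin of neural adherens junctions, was 3.15-fold higher in early dorsal cells (1.65 ± 0.29, SE, adjusted p = 0.011). Its level ran from 12.82 to 14.41 in early dorsal samples, with a median of 13.43, against 10.48 to 12.43 in early lateral samples, with a median of 11.83. The walls did not overlap. At the late times it ran from 11.82 to 13.18 in dorsal samples and from 11.94 to 13.18 in lateral samples, and the walls overlapped widely. The change in its wall difference, late minus early, was -1.90 ± 0.38 (SE) and missed the threshold (adjusted p = 0.068). The early call was lost without 8 hours replicate 1 (adjusted p = 0.0645) or 2 days replicate 1 (0.053). It was lost too with median centring (0.98, adjusted p = 0.236) and with the replicate block. A second Cdh2 probe, well above background on 11 arrays, gave an early difference of 0.29.

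Cdh26, an atypical cadherin known from epithelia, was higher in early dorsal cells by 2.58 ± 0.48 on the log2 scale (SE, adjusted p = 0.014) and over all times by 1.98 ± 0.31 (adjusted p = 0.0080). Its early level ran from 6.13 to 9.92 in dorsal samples, with a median of 9.44, against 5.88 to 6.37 in lateral samples, with a median of 6.15. It was well above background on 6 of 7 early dorsal samples and on 3 of 7 early lateral ones, and late on 5 of 10 dorsal and 2 of 10 lateral samples, so most lateral samples were not well above background and no fold is given. The 1 early array with a difference below 0 was 1 day replicate 1, at -0.23. The early call was lost without 8 hours replicate 1 (0.0846) or 2 days replicate 2 (0.0738) and in the authors' deposited value table (0.0634), while the call over all times passed without each array in turn. Both calls were lost with the replicate block.

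Cdh4, the R-cadherin, was higher in dorsal cells over all times (1.44 ± 0.32, SE, 2.72-fold, adjusted p = 0.036), with a difference above 0 on 16 of 17 arrays. At the late times its level ran from 10.48 to 14.42 in dorsal samples, with a median of 11.89, against 8.55 to 12.73 in lateral samples, with a median of 10.59. This call held in 6 of 17 refits without 1 array each. It was lost with median centring (0.70, adjusted p = 0.269), with processed signals (0.0566) and with the replicate block. The other Cdh4 probe on all 17 arrays gave a difference of 0.48, and the probe printed above, well above background on 4 arrays, gave 0.35.

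Cdh9 was the only member called lower in dorsal cells. It is a type II cadherin that helps mossy fibre synapses form in the mouse hippocampus. Its early level ran from 6.56 to 9.29 in dorsal samples, with a median of 6.85, against 7.27 to 10.57 in lateral samples, with a median of 7.63. The ranges overlapped between samples, but within arrays the dorsal value was below the lateral one on all 7. The early difference was -0.85 ± 0.14 (SE, adjusted p = 0.0075) and that over all times was -0.56 ± 0.09 (adjusted p = 0.0092). Both passed without each array in turn and were lost with quantile normalization and with the replicate block. The newer annotation does not place this probe in the genome.

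Clustered protocadherins made up the other 4 early calls, each higher in dorsal cells. Pcdhb22 differed by 1.88 ± 0.42 (SE, adjusted p = 0.030), with all 7 early arrays above 0. Its early level ran from 6.70 to 10.82 in dorsal samples, with a median of 10.28, against 6.29 to 9.0 in lateral samples, with a median of 8.42. The Pcdhga9 probe differed by 1.48 ± 0.26 (SE, adjusted p = 0.0097), from 15.44 to 16.07 in early dorsal samples against 13.62 to 14.86 in early lateral ones, with no overlap. That probe lists 4 transcripts, so it cannot tell Pcdhga9 from other gamma genes, and the Pcdhga9 probe that lists 1 transcript differed by 0.24. Pcdha9 differed by 1.21 ± 0.26 (SE, adjusted p = 0.028) and Pcdhga7 by 0.79 ± 0.17 (adjusted p = 0.029), each above 0 on 6 of 7 early arrays.

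The calls of these 4 genes depended on single arrays and on the processing. Pcdhga9 was lost without 8 hours replicate 2 (0.0542) or 2 days replicate 1 (0.0531). Pcdha9 was lost without either array of 8 hours or of 2 days, with adjusted p of 0.0777 to 0.121. Pcdhga7 was lost without any of those 4 arrays or without 1 day replicate 2 (0.0529 to 0.118), and Pcdhb22 without either array of 8 hours, 2 days replicate 1, or 1 day replicate 2 or 3 (0.0563 to 0.173). Over all times Pcdha9 (0.85 ± 0.17, adjusted p = 0.024), Pcdhga9 (0.74 ± 0.17, 0.038) and Pcdhga7 (0.50 ± 0.11, 0.038) were also higher in dorsal cells. Early Pcdha9, Pcdhga7 and Pcdhb22 were each lost with processed signals (adjusted p 0.103, 0.102 and 0.138), with quantile normalization (0.106, 0.172 and 0.0607) and in the authors' deposited value table (0.0858, 0.0668 and 0.0795), in that order. Pcdhb22 was lost with median centring too (0.0621), where Pcdhga9 was 0.18 (0.836) at the early times and turned its sign over all times. Over all times Pcdha9, Pcdhga7 and Pcdhga9 were also lost with processed signals (0.0842, 0.108 and 0.0542) and in the deposited table (0.0556, 0.0749 and 0.113).

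**Figure D1:**
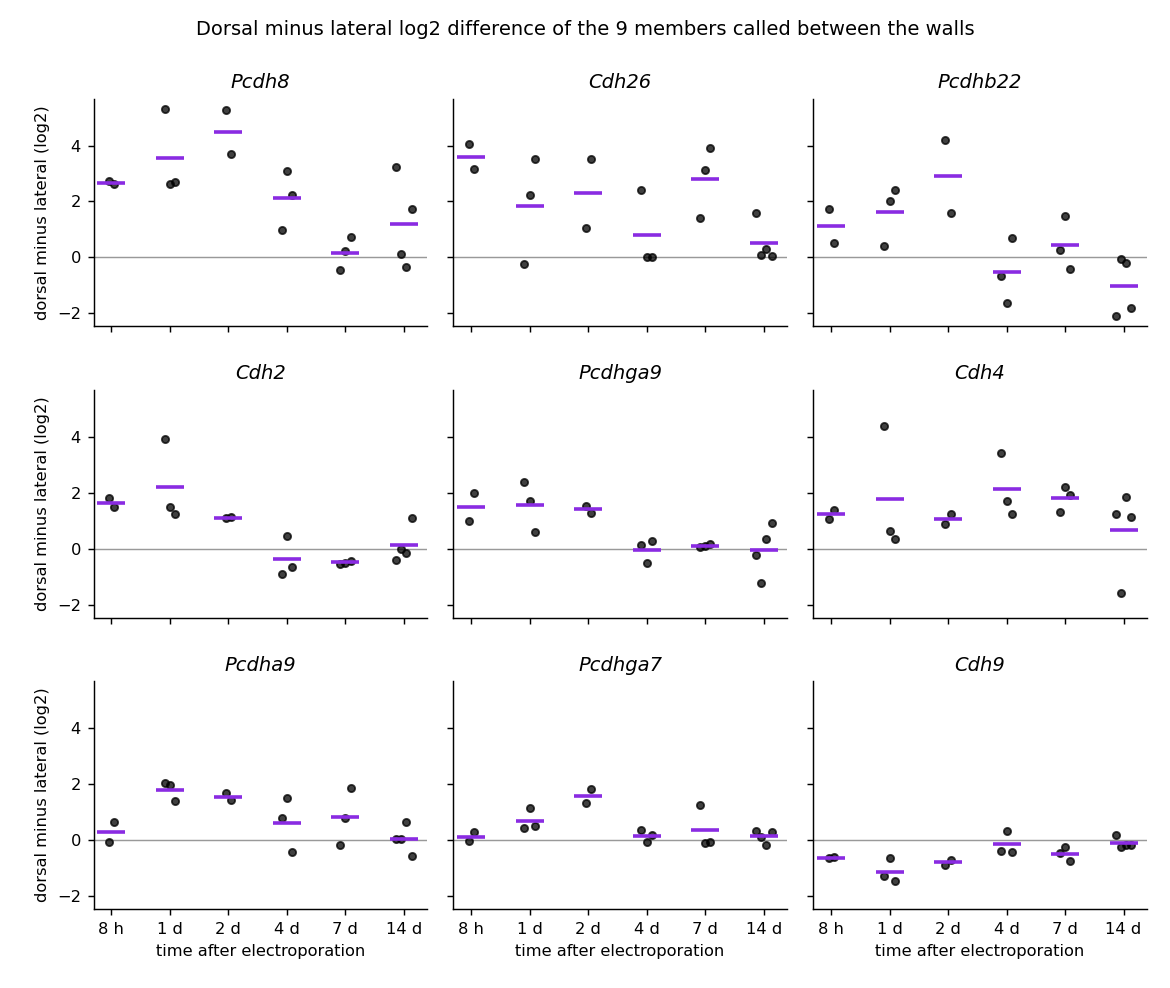
Dorsal minus lateral log2 difference (vertical axis) on each array (points) at each time after electroporation (horizontal axis) for the 9 members called between the walls, with bars at the time point means and points spread sideways only for sight. The differences of Pcdh8 lie between 2.61 and 5.30 at the early times and between -0.44 and 3.23 at the late ones, and those of Cdh9 lie below 0 on all 7 early arrays.

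At the late times no member was called between the walls, as no gene was (0% of 24295). Unadjusted p was under 0.05 for 11 members and 2021 genes. The late difference of Pcdh8 was 1.15 ± 0.38 (SE, adjusted p = 0.44), that of Cdh26 was 1.37 ± 0.40 (0.38), with all 10 late arrays above 0, and that of Cdh4 was 1.53 ± 0.41 (0.33). The change of the wall difference, late minus early, was itself called for no member, against 0.3% of all genes (0.0412% higher and 0.259% lower), with 15 members at an unadjusted p under 0.05. The 5 members nearest to a call there were Cdh2, Pcdhga9 (-1.48 ± 0.34, adjusted p = 0.096), Pcdhb22 (-2.26 ± 0.54, 0.117), Pcdhb7 (-2.80 ± 0.68, 0.119) and Pcdh8 (-2.41 ± 0.59, 0.121). A loss of the early wall difference by the late times was therefore not shown for any member.

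Over time, the 2 walls were compared within their own dye. In dorsal cells 2 members rose and 3 fell from early to late times, 7.46% of the members against 5.25% of all genes (1.51% rose and 3.74% fell). In lateral cells 6 rose and 0 fell, 8.96% against 6.5% of all genes (3.47% rose and 3.04% fell). The dorsal split was 0 and 2 with median centring and 1 and 3 with quantile normalization, which split the lateral calls 7 and 1. With the replicate block the dorsal split was 0 and 3. Of all genes, 4.98, 5.36 and 4.37% were called in dorsal cells under these settings, in that order. In lateral cells 7.16% were called with quantile normalization. On the mean of both walls 5 members changed over the 6 times, 7.46% against 8.05%. These shares are near those of all genes, so the results below are about single genes. In neither wall did any member have late samples that all lay beyond its early ones, which was so for 0.808% of genes in dorsal and 1.04% in lateral cells.

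Pcdh8, Cdh2 and Cdh15 fell in dorsal cells. Pcdh8 ran from 8.14 to 13.56 in late dorsal samples, with a median of 11.44, against 13.34 to 14.84 in early ones, with a median of 13.88. One late sample, 4 days replicate 2, reached into the early range. The change was -2.44 ± 0.54 (SE, 5.42-fold lower, adjusted p = 0.019), while in lateral cells it was -0.02 (adjusted p = 0.99). On the 3 slides that held both phases the dorsal change was -1.90, -1.76 and -1.42. The call was lost without either array of 8 hours (0.0713 and 0.0578) or without 2 days replicate 2 (0.0699), and in the fit within those slides (-1.63, adjusted p = 0.0644).

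Cdh2 fell to 11.82 to 13.18 in late dorsal samples (median 12.40), against 12.82 to 14.41 in early ones (median 13.43). The change was -1.0 ± 0.25 (SE, adjusted p = 0.035), with -0.68, -0.76 and -0.69 on the 3 slides. It held in 8 of 17 refits without 1 array each. It was lost with processed signals (0.157), median centring (0.0578), the stricter filter (0.0555), the mean over probes (-0.62, 0.114), within slides (0.202) and with the replicate block. In lateral cells the change was 0.90 and did not pass (adjusted p = 0.072).

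Cdh15, the M-cadherin known from muscle satellite cells and cerebellar granule cells, was at its highest at 8 hours in dorsal cells. Its level there was 9.73 and 10.38 in the 8-hour samples, 8.90, 8.30 and 7.24 after 1 day, 7.13 and 8.37 after 2 days, and 6.88 to 7.97 at the late times. The late dorsal median was 7.20, against 8.37 at the early times. The change was -1.45 ± 0.27 (SE, 2.73-fold lower, adjusted p = 0.0064), and it passed without each array in turn and under all 12 other settings. Only 1 Cdh15 probe passed the filter, so the mean over probes and every probe on its own could not change its values. On the 3 slides the dorsal change was 0.01, -1.35 and -3.08, the last being the slide of both 8-hour arrays. In lateral cells the change was -0.70 (adjusted p = 0.59).

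Pcdh9 and Pcdh7, both delta protocadherins of the subgroup whose tail binds protein phosphatase 1, rose in both walls. Pcdh9 ran from 7.35 to 12.98 in late dorsal samples, with a median of 10.86, against 6.45 to 8.44 in early ones, with a median of 8.21. In lateral cells it ran from 10.16 to 13.70 at the late times, with a median of 11.77, against 6.46 to 12.31 at the early times, with a median of 7.58. Among the early lateral samples, 1 day replicate 1 was the high one at 12.31. The change was 2.61 ± 0.71 in dorsal cells (SE, 6.11-fold, adjusted p = 0.049) and 3.53 ± 0.75 in lateral cells (11.6-fold, adjusted p = 0.013). On the 3 slides it was 3.08, 2.50 and 3.46 in dorsal cells, and 2.68, 1.58 and 5.79 in lateral cells.

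The dorsal call of Pcdh9 held in 3 of 17 refits without 1 array each, and it was lost with processed signals, median centring, quantile normalization, no filter, and without both arrays that stood apart (adjusted p 0.055 to 0.113). The lateral one was lost without 8 hours replicate 1 (0.0512). The other Pcdh9 probes agreed in sign: the lateral change was 3.02 for the probe printed above, 4.16, 2.03 and, for a dim probe well above background on 8 arrays, 0.27.

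Pcdh7 ran from 7.34 to 11.57 in late dorsal samples, with a median of 8.90, against 6.44 to 7.97 in early ones, with a median of 6.76. In late lateral samples it ran from 7.32 to 11.27, with a median of 8.65, against 6.21 to 7.54 in early ones, with a median of 6.67. The late and early samples overlapped slightly in each wall. The change was 2.38 ± 0.65 in dorsal cells (SE, adjusted p = 0.0499) and 2.00 ± 0.46 in lateral cells (adjusted p = 0.021). Early signal was well above background in 4 of 7 dorsal and 6 of 7 lateral samples. The dorsal call held in 3 of 17 fits without 1 array, and the lateral call was lost without either array of 8 hours or of 2 days (0.058 to 0.065) and within slides (0.084). The dorsal call of Pcdh7 was lost too with median centring, with no filter, with every probe on its own, within slides, and without both arrays that stood apart (0.0562 to 0.155). A second probe, for another transcript of Pcdh7, was well above background on 8 arrays and changed by 0.49 in dorsal and 0.31 in lateral cells.

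**Figure D2:**
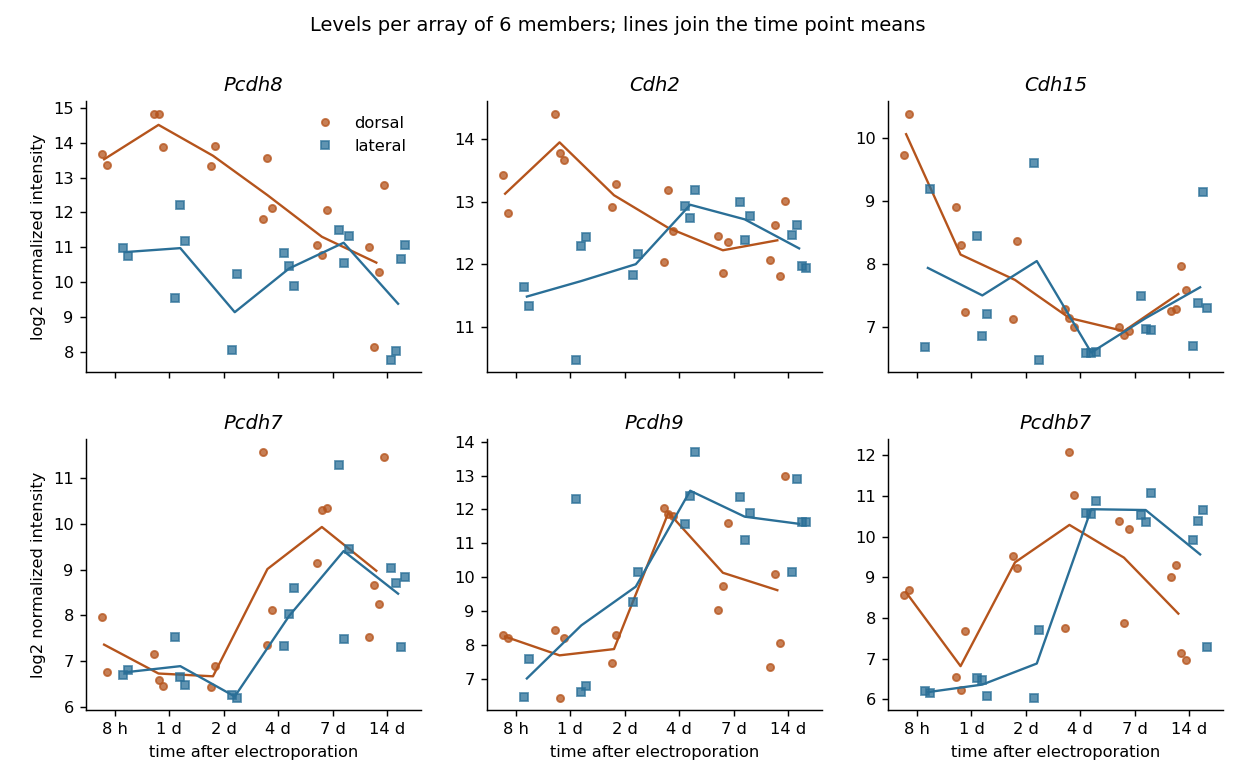
Log2 normalized intensity (vertical axis) per array at each time after electroporation (horizontal axis) for 6 members, dorsal samples as circles left of lateral samples as squares, with lines through the time point means. Pcdh8 and Cdh2 lie apart between the walls at the early times, and Pcdhb7 lies between 6.04 and 7.71 in early lateral samples. Pcdh9 and Pcdh7 have higher late than early medians in both walls, while late dorsal Pcdh9 goes down to 7.35.

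Most genes of the beta cluster had a higher mean late than early. Of its 22 members, 20 had a positive late minus early difference in dorsal cells and 20 in lateral cells, with medians of 0.71 and 1.03, where all genes had medians of 0.03 in both walls and 52.4% and 52.8% of genes were positive. In lateral cells 4 of them rose (18.2%, against 3.47% of all genes), and in dorsal cells none did (against 1.51%). The mean log2 level of the cluster per array ran from 7.79 to 9.28 in late dorsal samples against 7.61 to 8.27 in early ones, and from 7.81 to 9.03 in late lateral samples against 7.05 to 7.94 in early ones. Within the late times, lateral means were 8.43 to 9.03 at 4 and 7 days and 7.81 to 8.32 at 14 days. Pcdhb12, Pcdhb13 and Pcdhb21 were well above background on at most 1 early sample per wall and on 3 to 7 late ones. They passed the filter mostly through late arrays, so their positive sign is not independent of it, and Pcdhb13 is among the 4 lateral calls. Beta genes share much of their sequence, so probes may read each other's transcripts, and the members are not independent of each other.

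Pcdhb7 had the largest late minus early change of all members. Its lateral level ran from 7.29 to 11.08 at the late times, with a median of 10.55, against 6.04 to 7.71 at the early times, with a median of 6.20. Of the late lateral samples, 14 days replicate 4 alone, at 7.29, lay inside the early range, and the early lateral signal was well above background on 2 of 7 samples, so no fold is given. The change was 3.83 ± 0.43 (SE, adjusted p = 0.000195), with 4.52, 2.75 and 4.80 on the 3 slides, and it passed without each array in turn and under all 12 other settings. Only 1 Pcdhb7 probe passed the filter, so the mean over probes and every probe on its own could not change its values. In dorsal cells Pcdhb7 ran from 6.97 to 12.09 at the late times against 6.23 to 9.51 at the early times, a change of 1.02 that did not pass (adjusted p = 0.47).

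The other beta genes that rose in lateral cells were Pcdhb17, Pcdhb4 and Pcdhb13. Pcdhb17 ran from 8.87 to 12.64 in late samples (median 9.53) against 6.14 to 9.01 in early ones (median 8.10), a change of 2.01 ± 0.48 (SE, adjusted p = 0.025). Its second probe changed by 1.26. Pcdhb4 ran from 6.54 to 10.81 in late samples (median 8.34) against 6.18 to 8.63 in early ones (median 6.41), a change of 1.54 ± 0.39 (SE, adjusted p = 0.031). Pcdhb13 was well above background on 7 of 10 late lateral samples and on 0 of 7 early ones, so only a bound can be given. By the probe that stood for it, the bound was 2.61-fold higher at the late times (measured log2 means 7.65 and 6.21, adjusted p = 0.034). The bound sets the late mean against the mean, per early array, of the lowest signal well above background or the probe's own signal, whichever was higher. It is a ratio of means without sampling error. A second Pcdhb13 probe had lateral means of 6.25 early and 6.31 late.

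These 3 calls were lost without single arrays. For Pcdhb17 these were 8 hours replicate 1, 2 days replicate 2, 4 days replicates 1 and 3 and 7 days replicate 1 (adjusted p 0.0502 to 0.0932). With the mean over probes Pcdhb17 (0.106) and Pcdhb13 (0.75, adjusted p = 0.108) were lost as well. The Pcdhb4 call held in 10 and the Pcdhb13 call in 8 of the 17 fits without 1 array.

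On the mean of both walls, Pcdhb7, Pcdh7, Pcdh9, Pcdhb8 and Pcdhgb4 changed over the 6 times (adjusted p = 0.014, 0.018, 0.042, 0.035 and 0.042). The distance between the highest and lowest time point means was 3.89, 3.22, 4.60, 1.20 and 1.84 on the log2 scale, in that order. Pcdhb8 was 7.63, 7.04 and 7.51 at 4 days and 7.57, 7.26 and 6.55 at 7 days, while all other arrays lay between 6.07 and 6.65. It was well above background on 9 of the 17 arrays, in 7 dorsal and 6 lateral samples. Pcdhgb4 was well above background on 3 arrays, and its change rested on 2 days replicate 1, at 11.35 in its lateral sample. Without that array its adjusted p was 0.431. Pcdhb8 held in 6 and Pcdh9 in 4 of 17 fits without 1 array. Within slides Pcdhb7 (0.0502), Pcdhb8 (0.173) and Pcdhgb4 (0.142) were lost, as was Pcdhb8 with quantile normalization (0.0635) and the stricter filter (0.0627) and Pcdh9 with no filter (0.055).

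**Figure D3:**
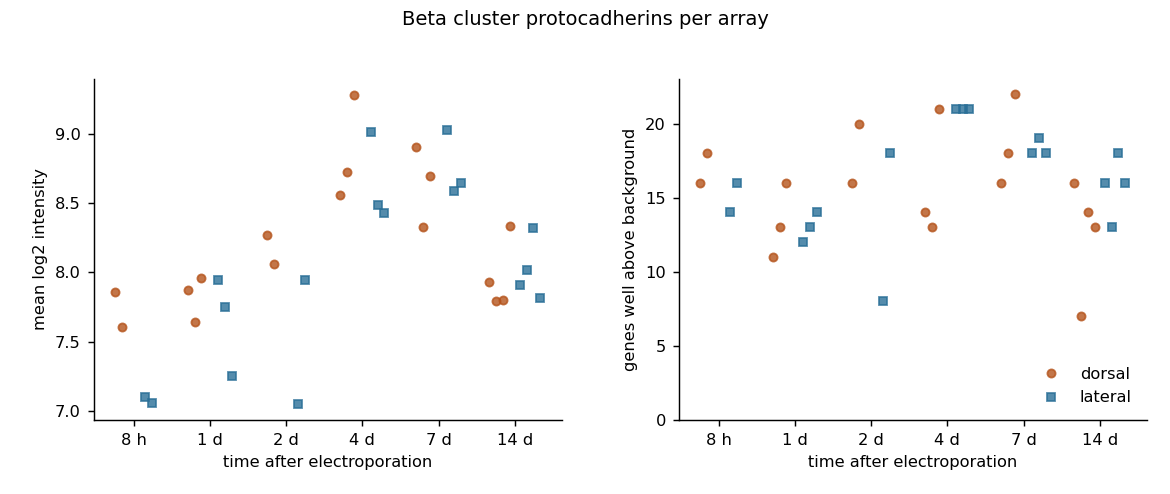
Mean log2 intensity of the 22 beta cluster genes per array (left) and how many of the 22 were well above background (right), by time after electroporation, with dorsal samples as circles left of lateral samples as squares. Lateral means lie between 7.05 and 7.94 at the early times and between 7.81 and 9.03 at the late ones, and the counts lie between 7 and 22.

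**Figure D4:**
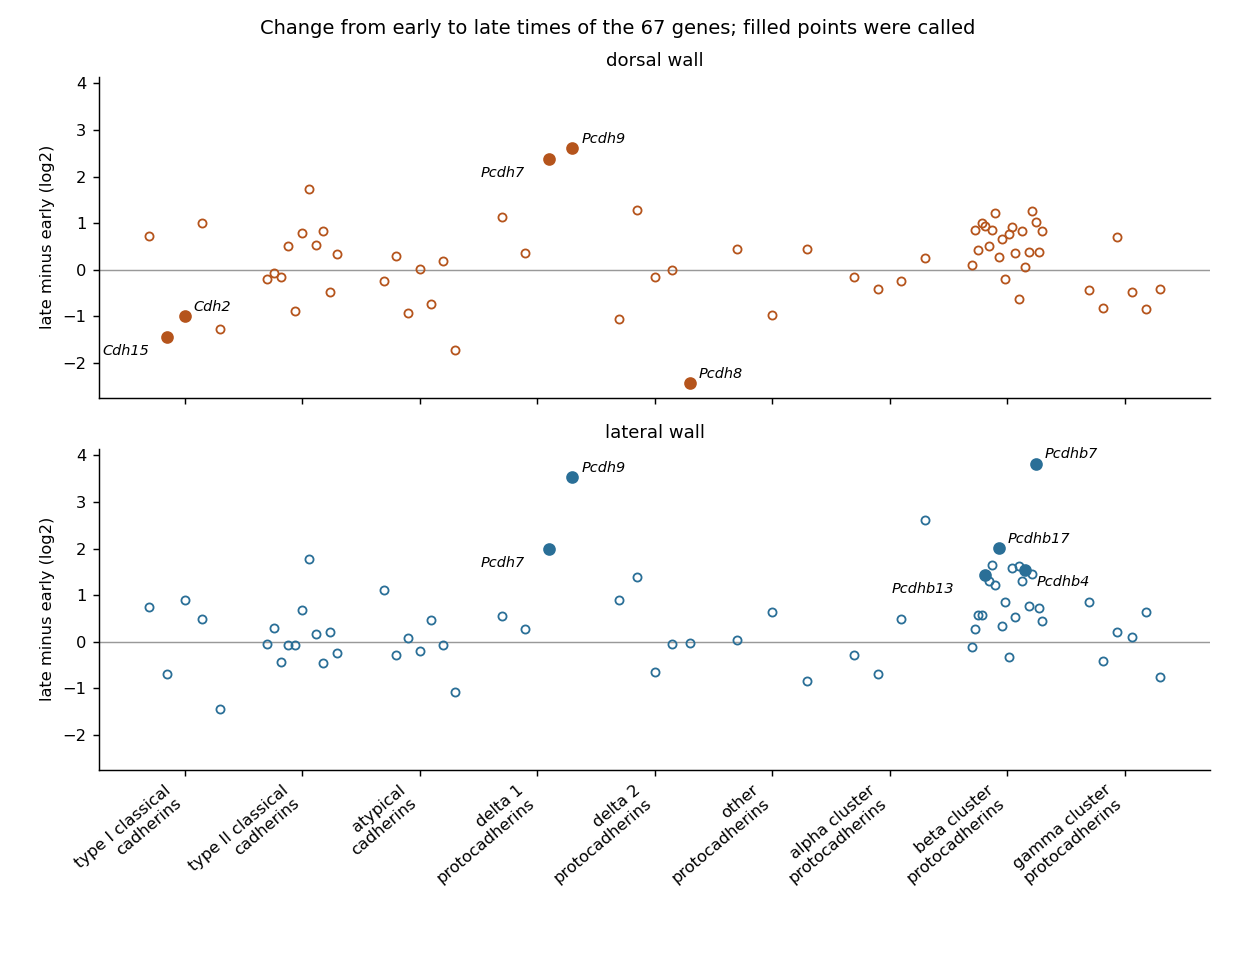
Late minus early log2 difference (vertical axis) of each of the 67 genes by family (horizontal axis), dorsal cells above and lateral cells below, with called genes filled and named. In the beta cluster 20 of 22 points lie above 0 in each wall, and all 4 delta 1 protocadherins lie above 0 in both.

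The remaining families held few calls. Of the 5 type I cadherins, Cdh2 and Cdh15 fell in dorsal cells and Cdh2 and Cdh4 were called between the walls, while Cdh1 (E-cadherin) was called nowhere. Of the 11 type II cadherins only Cdh9 was called, and Cdh6, Cdh8, Cdh10, Cdh11, Cdh20 and Cdh22 were not. Cdh22 had the largest wall difference of these over all times, -0.88 ± 0.36 (SE, adjusted p = 0.24). The probe that stood for Cdh11 was well above background in every sample. Its late minus early difference was -0.06 ± 0.50 in dorsal and 0.30 ± 0.37 in lateral cells. The other Cdh11 probes were not so in every sample and had lower late than early means in both walls. In lateral cells these were 7.83 against 9.16 and 7.75 against 8.21. Cdh13, the cadherin held by a lipid anchor, had an early wall difference of 1.46 ± 0.69 (adjusted p = 0.29).

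Among delta protocadherins, all 4 of the first subgroup had positive late minus early differences in both walls, with medians of 1.75 in dorsal and 1.27 in lateral cells, and Pcdh1 was not called (1.12 ± 0.83 and 0.54 ± 0.64). Of the second subgroup Pcdh10, Pcdh17, Pcdh18 and Pcdh19 were not called. Pcdh17 had the value nearest to a call, 1.38 ± 0.40 in lateral cells (SE, adjusted p = 0.059). Pcdh10 had an early wall difference of 1.42 ± 0.54 (adjusted p = 0.18). Its second probe on all 17 arrays, for another transcript, had a difference of 2.00 ± 0.92 (adjusted p = 0.309), and a late minus early difference of -1.98 ± 0.65 in dorsal cells (adjusted p = 0.117). Pcdh15, of the inner ear's tip links, Pcdh20 and Cdhr1 of photoreceptors were not called, nor were Pcdha4, Pcdhb1, Pcdhga1 and Pcdhga12.

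Genes that act with cadherins were read from 6 lists, which give the rest of the pathway. Of 14 catenins and armadillo partners, 2 rose in lateral cells and the others passed no test: Ctnna2, the neural alpha-catenin, by 1.31 ± 0.28 (SE, adjusted p = 0.014) and Jup, plakoglobin, by 1.84 ± 0.49 (0.039). The Jup call held in 4 of 17 fits without 1 array. Of 21 other cadherin superfamily genes, Clstn1, a calsyntenin, and Fat4 were higher in early dorsal cells, by 1.60 ± 0.28 (adjusted p = 0.0097) and 1.68 ± 0.37 (0.028). Over time Celsr3, a cadherin that guides axon tracts, rose by 1.99 ± 0.46 in dorsal (adjusted p = 0.022) and by 3.31 ± 0.39 in lateral cells (0.00028).

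In the same list, Fat1 fell by 2.16 on the log2 scale in dorsal cells (adjusted p = 0.0070). Celsr1, of planar polarity, fell by 2.42 in lateral cells (0.019), where Clstn2 (1.77, 0.013) and Dchs1, the partner that Fat4 binds (2.00, 0.013), rose. Of 9 genes that cleave cadherins, Mmp9 rose in dorsal cells (1.81 ± 0.38, adjusted p = 0.014). Of 8 repressors of Cdh1 transcription, Zeb2 was lower in early dorsal cells (-1.09 ± 0.24, 0.027). Of 14 regulators of the protocadherin clusters, Rest, a repressor of neuronal genes, fell in dorsal cells (-3.15 ± 0.76, 0.027), and that call held in 9 of 17 fits without 1 array. Of 11 effectors of protocadherins, the kinase Fyn rose by 1.70 ± 0.45 in dorsal (0.043) and by 1.45 ± 0.27 in lateral cells (0.0056). The dorsal Fyn call held in 6 of 17 fits without 1 array and was lost with processed signals, median centring, quantile normalization and within slides (0.0597 to 0.129).

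Markers of several cell types that a sort could hold were also called between the walls or over time. Of 8 radial glia markers, 6 were higher in early dorsal cells, and 5 fell in dorsal and 2 in lateral cells over time. Their mean log2 level ran from 11.22 to 12.20 in late dorsal samples against 13.14 to 14.33 in early ones, and from 11.91 to 13.31 in early lateral samples. All 6 neuroblast markers rose in both walls, with the mean level at 14.47 to 15.47 in late lateral samples against 10.04 to 14.20 in early ones, and at 11.87 to 15.28 in late dorsal samples against 10.29 to 12.42 in early ones. Of 6 astrocyte markers, 3 were higher in early dorsal cells and 3 fell in dorsal and 2 in lateral cells over time.

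Of 5 ependymal markers 4 fell in each wall, with the mean level at 7.03 to 15.56 in late dorsal samples against 11.43 to 14.76 in early ones. Of 6 erythroid markers, 2 were higher in early dorsal cells and 3 of the 5 tested fell in dorsal cells over time. Cycling markers were lower for 1 of 6 in early dorsal cells and fell for 2 in lateral cells, and oligodendrocyte markers were called for 1 of 7 between the early walls and for 2 over time in lateral cells. Of 7 mural markers 2 fell in dorsal cells, of 7 microglial markers 1 rose in lateral cells, of 4 choroid plexus markers 1 was lower in early dorsal cells, and of 7 endothelial markers 0 were called. Lum of fibroblasts was not well above background in any early sample. Over the 6 times, 6 of 6 neuroblast, 6 of 6 astrocyte, 5 of 7 microglial, 4 of 8 radial glia, 3 of 5 ependymal, 3 of 6 cycling, 2 of 7 oligodendrocyte, 1 of 7 mural and fibroblast and 1 of 5 erythroid markers changed on the mean of both walls. The part of these cell types in the changes of the cadherins and protocadherins was not tested.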

How the data were processed

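Each of the 17 arrays carried 1 dorsal (Cy3) and 1 lateral (Cy5) sample of sorted GFP-positive cells. Per the labels' protocols, a company amplified the mRNA by global PCR with an undisclosed protocol. Spot values were deposited as linear fluorescence intensity, which the authors extracted with Feature Extraction of Agilent (10.5.1.1 or 10.7.3.1), per the file headers. The same deposited files hold the software's log10 ratio, red over green, and the value table's scale was read from it. That table correlated with the log10 ratio at r of -0.90 to -0.97 across probes, with a slope of -3.26 to -3.31 on bright probes, so the authors deposited it as log2 values of dorsal over lateral, and it served as an alternative for wall differences. Its column medians ran from -0.16 to 0.05, and the authors' normalization of these log2 values is not given in the labels or headers.

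Background was corrected with normexp (offset 50), log ratios by loess within arrays, and mean intensities by quantiles between arrays. Outlier spots were set to missing, and none was saturated. After averaging the spots of each probe, 36771 of 41174 probes were kept, those well above background in the dorsal or the lateral channel of 2 or more of the 17 arrays. The probe of highest mean signal stood for its gene, also where the name rule had not selected that probe, as for Cdhr4. Tests were fitted to 24339 genes, or 24295 where 14 days entered, in limma 3.58.1 under R 4.3.3, with a mean per time point over all 17 arrays. P-values are two-sided, from limma, and adjusted by Benjamini-Hochberg over every gene of the comparison (threshold 0.05). The number of arrays limits the precision, and the scripts were tested on simulated data.

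A probe counted as a member if the annotation of either software version named it so, and 17 probes were named differently in the 2 versions. Names follow a table of the GRCm38.p6 assembly. The text names every member called in a comparison, a list of members chosen by family whatever their values, and partner genes that were called. The members, the 6 partner lists and the 11 marker lists were chosen with earlier results of these data known. The alternatives tried were the scanner's processed signals, median centring, quantile normalization, other filters, the mean over probes, every probe on its own, array weights, slide as a random block, fits within slides, a replicate block, the deposited value table, and leaving out arrays. With every probe on its own, each gene was counted by its probe of lowest adjusted p. Matplotlib 3.10.9 (Python 3.11.15) drew the figures.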

Additional observations from a re-analysis of the deposited data

Results flagged for a closer look

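A sample far from the others of its time point was looked for where a time point had 4 arrays, which is 14 days, in 114 groups of values of the 38 named members. In 14 of these groups 1 sample lay apart, by a gap above Dixon's critical value for 4 samples. Chance gives about 1 in 20.

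Cdh26, an epithelial cadherin, stood out on 14 days replicate 1 in both walls, at a log2 level of 13.67 in dorsal and 12.08 in lateral cells, where the other 14-day samples lay between 6.27 and 6.38 in dorsal and between 6.09 and 6.23 in lateral cells. Its wall difference there was 1.59, against 0.05 to 0.29 on the others. Cdh13 was 11.64 in the dorsal sample of that array, against 8.72 to 9.04.

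On 14 days replicate 2, Pcdhb17 was 12.64 and Pcdh19 was 8.93 in lateral cells, against 8.87 to 9.31 and 7.76 to 7.88. On replicate 3, Cdh8 was 8.23 and Pcdh18 was 9.30 in lateral cells, against 6.52 to 6.72 and 6.53 to 6.82, and the wall difference of Cdh8 was -1.42. On replicate 4, the dorsal minus lateral differences of Cdh1 (-1.95), Cdh10 (1.88), Pcdh9 (1.35) and Pcdhga12 (1.48) stood apart, and Pcdhga12 was 8.57 in dorsal cells, against 6.27 to 6.44. On the other 14-day arrays the Pcdh9 difference ran from -3.58 to -2.78, lower in dorsal cells. Why these samples differ was not tested.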

How the results depend on the processing

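Over all fits with 1 choice changed, 663 values of the calls of the 38 named members kept direction and threshold, 234 kept direction and missed the threshold, and 1 reversed: Pcdhga9 over all times, at -0.39 (adjusted p = 0.255) with median centring. That setting moved the median dorsal minus lateral difference of all genes to -0.23 over all times, -0.11 early, -0.38 late and -0.11 for late minus early, from near 0, and values under it are relative to that shift.

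The number of members called between the walls at the early times was 8, and it was 5 with processed signals, 4 with quantile normalization, 13 with array weights, 1 with the replicate block and 4 in the deposited value table. Over all times it was 7, against 3 with processed signals, 12 with slide as a random block, 0 with the replicate block and 4 in the value table. For the late walls it was 0, against 8 (1 higher and 7 lower) with median centring, which called 18.7% of all genes there. For late minus early of the wall difference it was 0, against 2 with quantile normalization and 3 with array weights. It was 1 there with the slide block and 1 without both arrays that stood apart. Dorsal time gave 5, against 3 with processed signals, 2 with median centring, 16 with array weights, 3 with the replicate block and 3 without both arrays. Lateral time gave 6, against 15 with array weights, 10 within slides and 12 without both arrays. Change over the 6 times gave 5, against 3 with the stricter filter, 55 with array weights, 43 with the slide block and 12 within slides. Leaving out 1 array gave 3 to 9 early, 3 to 9 over all times, 0 late, 0 to 2 for late minus early of the walls, 1 to 6 dorsal, 1 to 10 lateral and 1 to 8 over the 6 times. The cause of these moves was not tested. The share of all genes called moved too, from 0.0247 to 23.7% over all times and from 4.29 to 71.8% for change over the 6 times. For the early walls it ran from 0.44 to 8.77%, for the late walls from 0 to 18.7% and for late minus early of the walls from 0 to 0.906%. For dorsal time it ran from 2.71 to 18.3% and for lateral time from 3.87 to 15.5%.

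Whether the replicate numbers of the labels pair the samples cannot be told from these data. Over 36 pairs of arrays with the same number, deviations from the time point means correlated at -0.14 to 0.33 (median 0.02), and 6 pairs were over 0.1. Over 83 pairs with different numbers they correlated at -0.30 to 0.29 (median -0.01), and 9 pairs were over 0.1. At 2, 4 and 7 days, arrays with the same number also shared a slide. With the replicate block the members' median wall difference was 0.21 at the early times and 0.13 over all times, against 0.32 and 0.24 without it. Within-slide fits could not be made for the wall differences, which every array holds. Signal over background limits the 9 genes that were well above background on under 9 arrays, Pcdhgb4, Cdh8 and Cdhr1 among those read here. It also limits Pcdhb13 and Pcdhb8, which were so on 9.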

Other observations

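Cdh1 and Cdh26, both known from epithelia, were high on the same array. On 14 days replicate 1 Cdh1 had a log2 level of 11.08 in dorsal and 11.22 in lateral cells. On the other 14-day arrays it was 7.09, 6.50 and 7.44 in dorsal cells, and 7.19, 6.57 and 9.39 in lateral cells.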
